A study of Mus musculus with 4 samples.

Results

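The Nfia and Nfib loci are 2 windows on mouse chromosome 4 that carry the names of the genes for nuclear factor I/A and nuclear factor I/B. A peak belonged to a locus when its summit lay between 97250000 and 97850000 (Nfia, 600 kb) or between 81800000 and 82350000 (Nfib, 550 kb) in the mm9 build. By that rule the loci held 115 of the 125330 peaks of the 4 deposited lists on chromosomes 1 to 19 and X, with 31 at Nfia and 84 at Nfib. The peaks came from chromatin immunoprecipitation with sequencing (ChIP-seq) of mouse neural progenitor-like cells, which had been grown from 129/SvJ embryonic stem cells in medium with EGF and FGF-2 and used at passages 15 to 18. Antibody M2, which binds the FLAG peptide, was used for the Pax6, Etv6 and EGFP_OK libraries, and an antibody to dimethylated lysine 4 of histone H3 for the H3K4me2 library. The Pax6 and Etv6 titles carry the letters NS. The EGFP_OK title carries N31, EGFP, OK and flag and names no tagged protein, and the H3K4me2 title carries N31, Oct4, EGFP and 0 hr. The sources used here do not say what drove the tagged proteins or whether NS and N31 cells share an origin. Where EGFP_OK is set beside Pax6 or Etv6, a difference between tagged proteins and one between cells therefore cannot be told apart. The same holds where Pax6 or Etv6 summits are set against H3K4me2 peaks, since the mark was measured in cells with the N31 name. Each group held 1 library and there was no control library. Every value below is therefore a description of these libraries, with counting error only and no test between conditions. The lists hold no expression values, so the cell type was not checked against its markers, and that each window contains its gene was taken from the rule.

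Nuclear factor I proteins are transcription factors that bind DNA as dimers through a conserved domain at their amino-terminal end. In the developing brain Nfia and Nfib are known for the start of gliogenesis, the formation of midline glia and the differentiation of radial glia, and neural stem cells grown with EGF and FGF-2 resemble radial glia. Pax6 is a paired-box and homeobox factor of forebrain and eye progenitors, and Etv6 is an ETS-family factor known mainly as a repressor. H3K4me2 marks promoters and enhancers that are active or poised. The peaks are given by position, because no gene models of mm9 were used here. Whether a peak lies at a start site, in an exon or in an intron of Nfia or Nfib is not stated for that reason, and no sequence is printed.

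The depth behind the lists was unequal, mainly once duplicate tags were dropped. Before that step Pax6 had 27560633 tags, against 29371583 to 35255051 in the other libraries. Duplicates made up 81% of the Pax6 tags, against 16% to 39% elsewhere. Kept tags numbered 5288154 for Pax6, against 21498324 to 24550365 for the others, and the lowest called Pax6 peak held 10 tags. The authors' fold enrichment is the height of a summit over the local background of the same library, and their score is a −log10 p-value from the peak caller, multiplied by 10. Both were used only to describe and rank peaks within a list.

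The Nfib locus was crowded with FLAG peaks and the Nfia locus was not. At Nfib there were 18 Pax6, 27 Etv6, 15 EGFP_OK and 24 H3K4me2 peaks, and at Nfia there were 4 Pax6, 9 Etv6, 7 EGFP_OK and 11 H3K4me2 peaks. As background, chromosomes 1 to 19 and X were divided end to end into windows of 550 kb. At least 18 Pax6 peaks were found in 0.729% of these 4664 windows, and at least 27 Etv6 peaks in 0.600%. The Nfib counts of EGFP_OK and H3K4me2 were less unusual, with as many peaks in 7.05% and 11.9% of the windows. For Nfia the shares of 4267 windows of 600 kb with at least as many peaks were 42.4% for Pax6, 37.2% for Etv6, 45.7% for EGFP_OK and 45.3% for H3K4me2, so these counts were close to the middle of the genome.

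Per length, the Nfib locus held 32.7 Pax6 peaks per Mb, against 8.88 per Mb of the effective genome in the whole list. For Etv6 the densities were 49.1 at Nfib and 16.5 per Mb in the whole list, and for EGFP_OK 27.3 and 15.2. The Nfia densities were 6.67 for Pax6, 15.0 for Etv6 and 11.7 for EGFP_OK, each below its whole list per Mb of the effective genome. The lengths differ in kind there, since a locus density uses the full window. Over windows of the same length as Nfia, the mean counts were 3.87 Pax6, 7.20 Etv6 and 6.59 EGFP_OK peaks. The Nfia counts of 4, 9 and 7 were each above that mean. H3K4me2 peaks covered 8.93% of the Nfib window and 3.01% of the Nfia window, against 5.08% of the effective genome. The 100 kb before the Nfib window held 3 Pax6, 3 Etv6 and 1 EGFP_OK peaks, and the 100 kb after it held 3, 2 and 1. With only the 16604 highest-scoring peaks of each list, whose density over the effective genome is 8.88 per Mb, the Nfib locus held 18 Pax6, 11 Etv6, 11 EGFP_OK and 2 H3K4me2 peaks. These were 3.69 times that density for Pax6 and 2.25 times for Etv6 and EGFP_OK, while H3K4me2 turned to 0.410 times, against 1.65 times with the full list. Such ratios also set full-length windows against the effective genome.

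**Figure D1:**
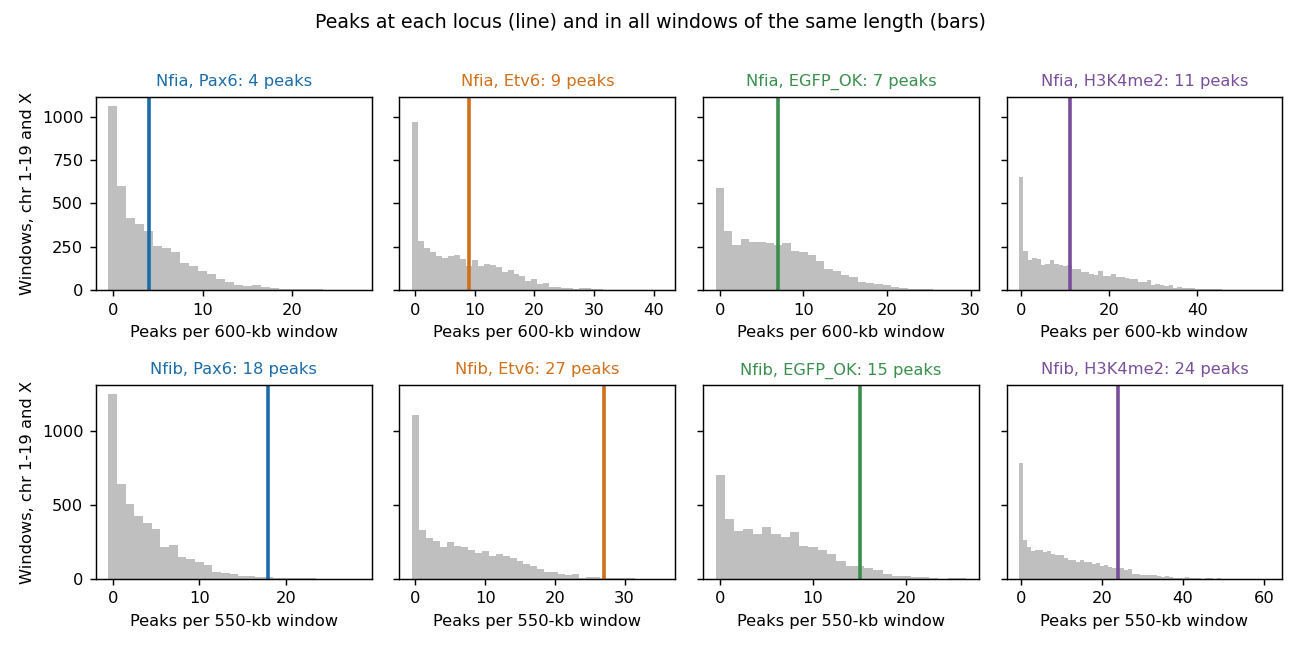
Number of peaks at each locus (coloured line) beside the number in every window of the same length on chromosomes 1 to 19 and X (grey bars, count of windows on the vertical axis). The Nfib lines for Pax6 at 18 and Etv6 at 27 stand in the far right tail, and the Nfia lines stand in the body of the bars.

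Peaks of all lists were merged by overlap of at least 1 bp. This gave 21 separate regions at Nfia and 44 at Nfib, against 83716 over the whole lists. A FLAG peak was present in 15 of the Nfia regions (71.4%, 95% interval 47.8 to 88.7) and in 38 of the Nfib regions (86.4%, 72.6 to 94.8), against 67.5% of all regions. An H3K4me2 peak was present in 11 at Nfia and 24 at Nfib (54.5%, 38.8 to 69.6), against 57.7%. Regions with peaks of 2 FLAG lists numbered 3 at Nfia and 12 at Nfib (27.3%, 15.0 to 42.8), against 15.5%. Regions with all 3 FLAG lists numbered 1 at Nfia and 5 at Nfib (11.4%, 3.79 to 24.6), against 3.52%. The Nfib interval lay above the share of all regions for any FLAG peak and, narrowly, for all 3 lists. Neighbouring regions of 1 locus are not independent, and the FLAG peak density at Nfib moves with these shares. With summits within 200 bp, or with scores of at least 100, the Nfib regions with all 3 lists numbered 0. The 6 regions at each locus with no FLAG peak all held H3K4me2 by construction.

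**Figure D2:**
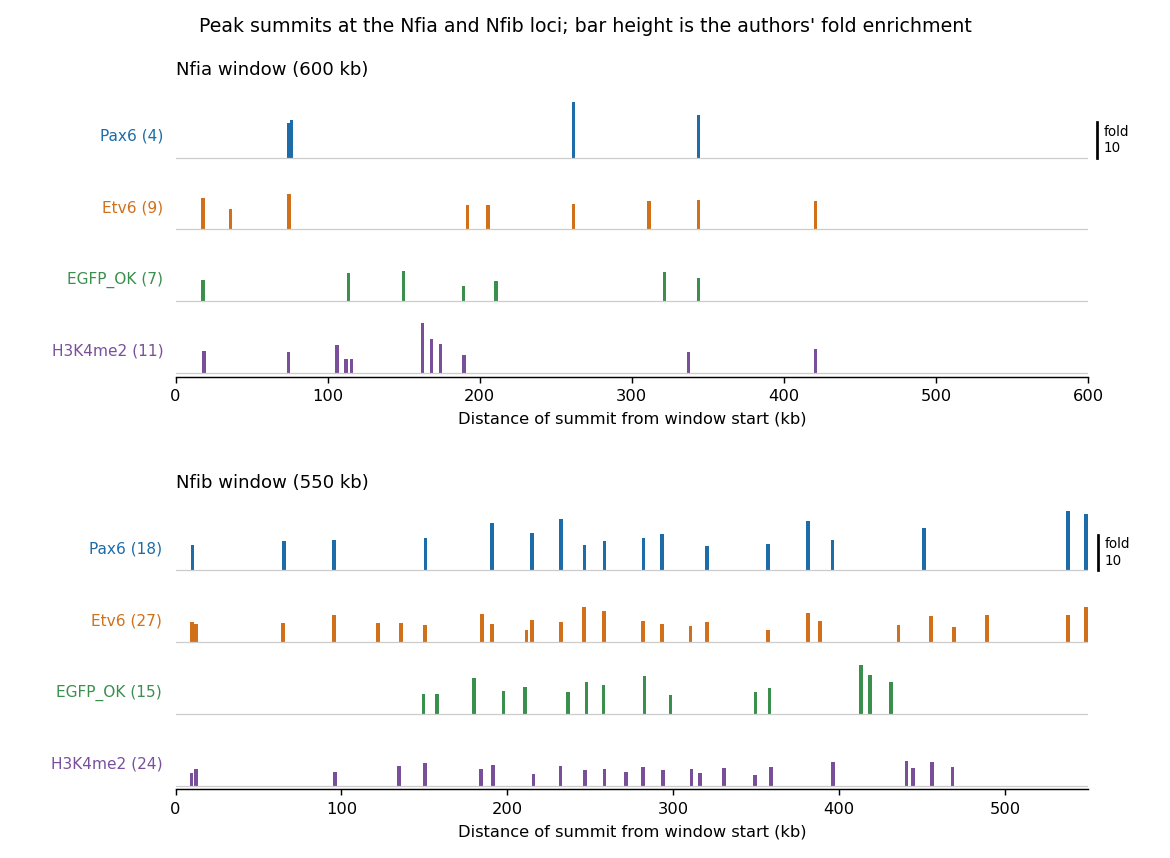
Positions of all 115 summits, as distance in kb from the start of each window, with bar height showing the authors' fold enrichment (scale bar 10-fold) and the number of peaks beside each list's name. At Nfia no list has a peak in the last 178 kb of the window, while at Nfib the Pax6 and Etv6 peaks run from end to end and the EGFP_OK peaks lie in the middle.

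At the Nfia locus the peaks of all lists lay between 97267415 and 97671601, and the remaining 178 kb up to the window's end held none. The 4 Pax6 peaks held 12 to 43 tags. The one with the highest score, at 97510940 to 97512294, had 43 tags and a fold of 15.4 and ranked at 726 of 16604 Pax6 peaks. An Etv6 peak of 51 tags and a fold of 6.99 lay on it, at rank 12093 of 30931 Etv6 peaks, with its summit at 97511710 and the Pax6 summit at 97511712. The Pax6 peak was 1355 bp wide and the Etv6 peak 1105 bp. The site had no EGFP_OK peak, and the nearest H3K4me2 peak lay 71646 bp from the Pax6 summit.

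The remaining Pax6 peaks at Nfia were weaker. A peak at 97324284 to 97325111 (16 tags, fold 9.77) met an Etv6 peak of 73 tags with a fold of 9.74, the highest-scoring Etv6 peak of the locus, and a small H3K4me2 peak of 22 tags. Next to it, at 97325972 to 97326678, stood a Pax6 peak of 13 tags that overlapped no other FLAG peak and whose summit was 1585 bp from the Etv6 summit. The fourth, at 97593510 to 97594322 (12 tags, fold 11.9), was in the only Nfia region shared by all FLAG lists. There the Etv6 peak had 57 tags and a fold of 8.21, and the EGFP_OK peak 31 tags and a fold of 6.41. Their summits lay at 97593721 for Pax6, 97593663 for Etv6 and 97593664 for EGFP_OK. No H3K4me2 peak overlapped the region, and the edge of the nearest lay 5910 bp from the Pax6 summit.

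Of the 9 Etv6 peaks at Nfia, 5 overlapped no other FLAG peak (55.6%), against 50.9% of the whole Etv6 list. The highest-scoring of these, at 97441382 to 97442851, had 94 tags and a fold of 6.71 and lay 1896 bp by its summit from an H3K4me2 peak. Of the 7 EGFP_OK peaks, 5 likewise overlapped no other FLAG peak (71.4%), against 77.0% of the whole EGFP_OK list. The EGFP_OK peak with the highest score, at 97267629 to 97269802, had 88 tags and a fold of 6.03. It met an Etv6 peak of 57 tags and a fold of 8.66, with summits 15 bp apart, inside one of the 3 widest H3K4me2 peaks of the locus (2449 bp, 176 tags). The EGFP_OK peaks at 97438524 to 97440413 (72 tags, fold 4.15, summit in H3K4me2) and at 97399538 to 97400367 (39 tags, fold 8.28, outside H3K4me2) came next by score, and neither overlapped a Pax6 or Etv6 peak.

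The 3 highest-scoring H3K4me2 peaks at Nfia, which were also the 3 with the highest folds, carried no FLAG peak. They stood in a row at 97412131 to 97413419 (110 tags, fold 13.9), 97417384 to 97419584 (213 tags, fold 9.49) and 97423790 to 97425230 (128 tags, fold 8.10). Their ranks were 5567, 3828 and 7884 of 49457, and a fold of 13.9 or more was reached by 0.661% of all H3K4me2 peaks. The nearest FLAG summit to any of these H3K4me2 summits was an EGFP_OK summit 12651 bp away, and the nearest Pax6 summit was 86302 bp away. Absence of a FLAG summit was not rare among H3K4me2 peaks of that score, since 43.8% of the H3K4me2 peaks scoring at least as high held none. The widest H3K4me2 peaks of the locus, besides the one with EGFP_OK and Etv6 named above, lay at 97363537 to 97366171 (2635 bp, 147 tags, fold 3.97) and 97437746 to 97440066 (2321 bp, fold 4.92, and with 252 the most tags of the locus), and each held an EGFP_OK summit and no other.

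At the Nfib locus Pax6 and Etv6 peaks lay along the whole window, from 81809513 to 82349543. The 18 Pax6 peaks held 14 to 50 tags, with a median of 21, and 16 of them overlapped an Etv6 peak. By score the first was at 82337160 to 82338053, with 24 tags and a fold of 16.6, the highest Pax6 fold of either locus. The Etv6 peak there had 69 tags and a fold of 7.60, and the summits were 70 bp apart. The second, at 82156486 to 82157895 (50 tags, fold 7.26), and the third, at 82180828 to 82181665 (21 tags, fold 13.8), met Etv6 peaks of 99 tags (fold 3.38) and 64 tags (fold 8.10). The 2 Pax6 peaks without Etv6 were at 82195271 to 82196505 (17 tags, fold 8.40), inside H3K4me2, and at 82250390 to 82251652 (31 tags, fold 11.8), outside it.

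The 3 highest-scoring Etv6 peaks at Nfib all met a Pax6 peak, against 38.9% of the whole Etv6 list at any score. The share among Etv6 peaks of similar score was not computed. The 3 peaks lay at 82045513 to 82047055 (122 tags, fold 9.74), 81895015 to 81896573 (124 tags, fold 7.69) and 82348097 to 82349543 (96 tags, fold 9.75), at ranks 2784, 2975 and 3107 of 30931. The Pax6 peaks at these sites held 31, 37 and 16 tags. The Etv6 peak next by score, at 81984009 to 81985351 with 95 tags, met no Pax6 peak. Of the 27 Etv6 peaks 10 overlapped no other FLAG peak (37.0%, against 50.9% of the list), with a median of 39.5 tags. The median was 56 tags for the 11 that met Pax6 only and 84 for the 5 that met both other FLAG lists. The remaining Etv6 peak, at 82009921 to 82011872 with 75 tags, met EGFP_OK only. In the whole Etv6 list these medians ran in the same order, at 44, 73 and 85 tags.

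The EGFP_OK peaks at Nfib occupied a narrower stretch, from 81949200 to 82231738. They held 32 to 258 tags, and 9 of the 15 overlapped no other FLAG peak (60.0%, 95% interval 32.3 to 83.7), against 77.0% of the list. The highest-scoring was at 82212172 to 82213574, with 126 tags, a fold of 13.5 and rank 502 of 28338. It overlapped no peak of any other list, and the nearest H3K4me2 peak lay 16197 bp from its summit. Further EGFP_OK peaks without a partner followed at 82218047 to 82218983 (35 tags, fold 10.8) and 82230632 to 82231738 (52 tags, fold 8.78), so that this stretch held 3 EGFP_OK peaks and no Pax6, Etv6 or H3K4me2 peak.

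The EGFP_OK peaks next in score stood on the 2 highest-scoring H3K4me2 peaks of the locus. At 82081348 to 82084348 the EGFP_OK peak was 3001 bp wide, with 258 tags and a fold of 10.6, at rank 851. In the same region there were 71 Etv6 tags (fold 6.03), 15 Pax6 tags (fold 9.08) and an H3K4me2 peak of 3741 bp with 357 tags and a fold of 5.36. The Etv6 peak was 1347 bp wide and the Pax6 peak 846 bp, so the tags of the FLAG lists were counted over different lengths. At 82156097 to 82158567 the EGFP_OK peak had 191 tags and a fold of 7.29, on an H3K4me2 peak of 4478 bp with 408 tags.

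The H3K4me2 peaks at Nfib were near their list in width and mostly below its median in fold. Their median width was 1654 bp, against 1628 bp in the whole list, and 5 of 24 had a fold above the list's median. Of the 24 peaks 5 were wider than 3 kb, or 20.8% (95% interval 7.13 to 42.2), against 14.4% of the whole list. At Nfia it was 0 of 11, which allows a share of up to 27.3% by counting error alone. The widest at Nfib were those at 82155876 to 82160353 (4478 bp), 82145922 to 82150304 (4383 bp, fold 3.08, and with 463 the most tags of the locus) and 82080712 to 82084452 (3741 bp). By score the first 3 were 82080712 to 82084452, 82155876 to 82160353 and 82267396 to 82270473 (228 tags, fold 5.19). The first and second of these held summits of every FLAG list, and the third an Etv6 summit only. Among all H3K4me2 peaks scoring at least as high as these, 6.29% held summits of every FLAG list. After 82270473 the Nfib window held no H3K4me2 peak, while 3 Etv6 peaks and 2 Pax6 peaks were called there.

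Sharing among the FLAG lists was frequent at Nfib for Pax6 with Etv6 and lower for EGFP_OK, with wide intervals. An Etv6 peak overlapped 16 of 18 Pax6 peaks at Nfib (88.9%, 95% interval 65.3 to 98.6) and 3 of 4 at Nfia, against 72.6% of the whole Pax6 list. Counted from Etv6, a Pax6 peak overlapped 16 of 27 at Nfib (59.3%, 38.8 to 77.6) and 3 of 9 at Nfia (33.3%, 7.49 to 70.1), against 38.9% of the whole list. EGFP_OK overlapped 4 of 18 Pax6 peaks at Nfib and 1 of 4 at Nfia, against 20.1%, and 6 of 27 Etv6 peaks at Nfib and 2 of 9 at Nfia, against 19.2%. Apart from the Nfib share of Etv6 peaks with Pax6, whose interval only just held the whole-list value, these shares were near their background. From the EGFP_OK side, 8 of the 22 peaks of both loci met Etv6 (36.4%, 17.2 to 59.3), against 20.9% of the list, and 5 met Pax6 (22.7%, 7.82 to 45.4), against 11.7%.

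Peaks that met both other FLAG lists made up 5 of 22 Pax6 peaks over both loci, against 16.6% of the list. For Etv6 they were 6 of 36, against 9.01%, and for EGFP_OK 5 of 22, against 9.65%. Peaks that met no other FLAG peak made up 3 of 22 for Pax6 (13.6%, 2.91 to 34.9), 15 of 36 for Etv6 (41.7%, 25.5 to 59.2) and 14 of 22 for EGFP_OK (63.6%, 40.7 to 82.8). The shares of such peaks in the whole lists were 23.9%, 50.9% and 77.0% in that order. Each of these 3 shares was below that of its list, and each interval held the list's value.

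Where peaks overlapped at Nfib, Pax6 and Etv6 summits mostly lay close together, and EGFP_OK summits mostly lay apart from both. The 16 Pax6 and Etv6 pairs at Nfib had a median summit distance of 71 bp and a range of 4 to 893 bp, and 9 lay within 100 bp, against 60.4% of all such pairs with a median of 76 bp. Summits over 500 bp apart made up 2 of the 16, against 5.75% of all such pairs. For Etv6 and EGFP_OK, 5 of the 6 pairs at Nfib had summits over 500 bp apart, with distances of 887, 971, 988, 996 and 1550 bp, against 20.1% of all such pairs. All 4 Pax6 and EGFP_OK pairs at Nfib were over 500 bp apart (644, 672, 975 and 1172 bp), against 19.3% of all such pairs. The EGFP_OK peaks of these 4 pairs were also in the Etv6 and EGFP_OK pairs, so both sets share summits and are not separate observations. Within 100 bp there were 1 Etv6 and EGFP_OK pair at Nfib, where 42.6% of all pairs were as close, and no Pax6 and EGFP_OK pair, where 42.9% were. At Nfia both Etv6 and EGFP_OK pairs were close, at 1 and 15 bp, and the Pax6 and EGFP_OK pair lay 57 bp apart.

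**Figure D3:**
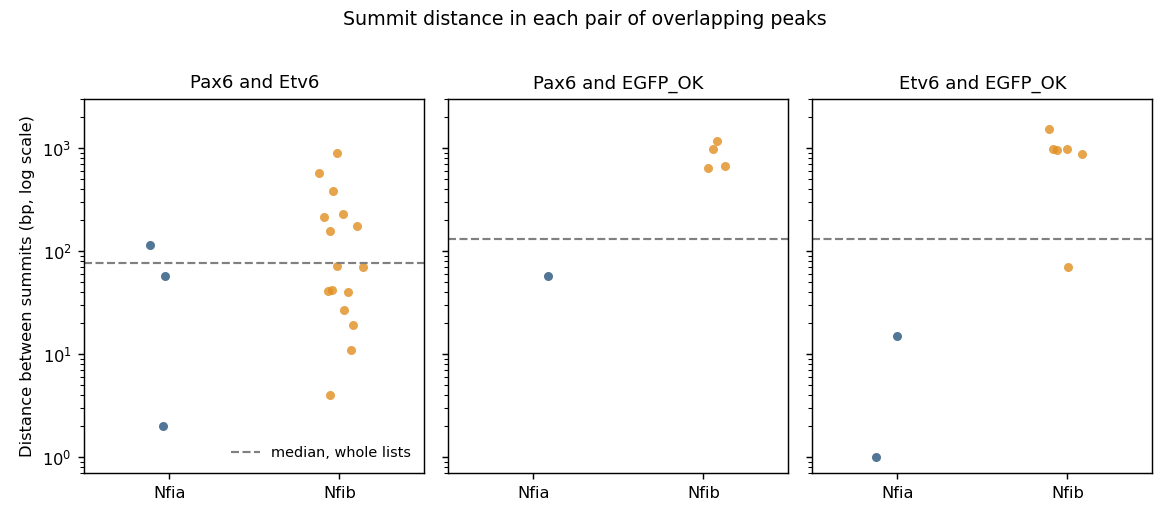
Distance between summits in bp, on a log axis, for each pair of overlapping FLAG peaks at Nfia (blue) and Nfib (orange), with the median over all overlapping pairs of the whole lists as a dashed line. The Pax6 and Etv6 pairs spread on both sides of their line at 76 bp, whereas all but 1 of the Nfib pairs with EGFP_OK stand at 644 bp or more. The Nfib pairs of EGFP_OK with Pax6 use the same EGFP_OK peaks as pairs with Etv6.

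In none of the 5 Nfib regions with all FLAG lists did the summits of all 3 coincide. In the region at 81949200 to 81951380 the summits were at 81950604 for Pax6, 81950428 for Etv6 and 81949432 for EGFP_OK. In the region at 82045188 to 82048274 they were at 82046465, 82046078 and 82047628 in the same order, and the Pax6 and EGFP_OK peaks met only through the Etv6 and H3K4me2 peaks between them. At 82057380 to 82059342 the Etv6 summit at 82058078 and the EGFP_OK summit at 82058008 were 70 bp apart, and the Pax6 summit at 82058652 lay apart. At 82155876 to 82160353 the Pax6 summit at 82157036 and the Etv6 summit at 82157040 were 4 bp apart, and the EGFP_OK summit was at 82158011. The remaining region was the one at 82080712 to 82084452, with Pax6 and Etv6 summits 215 bp apart. With summits within 200 bp of each other in place of overlap, 0 of these 5 regions counted as shared by all FLAG lists, and the Nfia region at 97593216 to 97594322 still did.

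H3K4me2 covered the Pax6 and Etv6 summits of Nfib at about the rate of their lists. Inside an H3K4me2 peak lay 11 of 18 Pax6 summits at Nfib (61.1%, 95% interval 35.7 to 82.7) and 1 of 4 at Nfia, against 43.7% of the list. For Etv6 it was 15 of 27 at Nfib (55.6%, 35.3 to 74.5) and 3 of 9 at Nfia (33.3%, 7.49 to 70.1), against 51.9%. For EGFP_OK it was 5 of 15 at Nfib (33.3%, 11.8 to 61.6) and 3 of 7 at Nfia (42.9%, 9.90 to 81.6), against 26.9%. Every interval at a locus held the value of its list. A Pax6 and Etv6 site at 82014271 to 82016294 counted as outside, although its summits were 45 and 3 bp from the edge of an H3K4me2 peak.

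Seen from the mark, more H3K4me2 peaks of Nfib held a FLAG summit than in the whole list. A summit of any FLAG list lay in 17 of 24 at Nfib (70.8%, 48.9 to 87.4) and in 5 of 11 at Nfia (45.5%, 16.7 to 76.6), against 40.3% of all H3K4me2 peaks. Pax6 summits lay in 11 of 24 at Nfib (45.8%, 25.6 to 67.2) and 1 of 11 at Nfia, against 14.5%. Etv6 summits lay in 15 of 24 at Nfib (62.5%, 40.6 to 81.2) and 3 of 11 at Nfia, against 31.9%. EGFP_OK summits lay in 5 of 24 at Nfib (20.8%, 7.13 to 42.2) and 3 of 11 at Nfia, against 15.3%. Summits of every FLAG list lay in 4 of 24 at Nfib (16.7%, 4.74 to 37.4) and in 0 of 11 at Nfia, against 4.01%. At Nfib the values for any list, for Pax6, for Etv6 and for all lists together had intervals above the list's value. Neighbouring peaks of 1 locus are not independent. At Nfib the FLAG peak density was 1.80 to 3.69 times that of the whole lists per Mb of the effective genome. It moves with these shares, and its part in them was not tested.

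**Figure D4:**
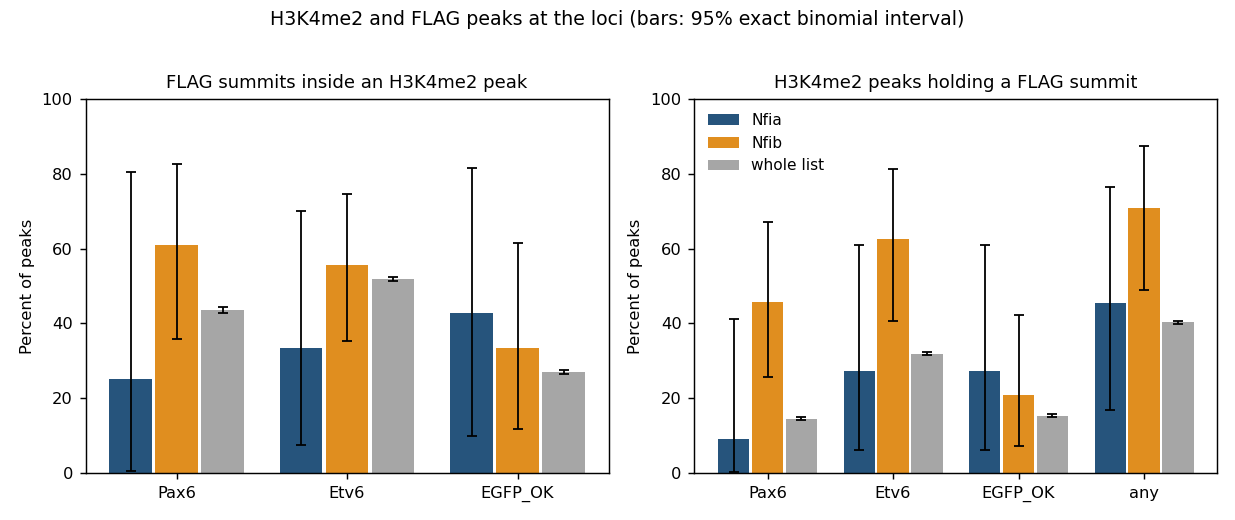
Percent of FLAG summits inside an H3K4me2 peak (left) and percent of H3K4me2 peaks that hold a FLAG summit (right) at Nfia, at Nfib and in the whole list, with exact 95% binomial intervals. On the left every locus interval spans its list's value, and on the right the Nfib bars for Pax6, Etv6 and any list stand above theirs.

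The folds at the loci lay on both sides of their lists' medians. The median Pax6 fold was 11.2 at Nfia (9.77 to 15.4) and 9.12 at Nfib (6.70 to 16.6), against 10.6 in the whole list. For Etv6 it was 8.04 at Nfia (5.55 to 9.74) and 5.53 at Nfib (3.38 to 9.75), against 6.26. Of the Etv6 peaks, 8 of 9 at Nfia and 9 of 27 at Nfib were above the list's median fold. For EGFP_OK the median fold was 6.41 at Nfia (4.15 to 8.28) and 7.54 at Nfib (5.41 to 13.5), against 7.04. H3K4me2 folds had a median of 6.23 at Nfia (3.94 to 13.9) and 4.90 at Nfib (3.08 to 6.87), against 5.82, and 8 of 11 at Nfia but 5 of 24 at Nfib were above the list's median.

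Scores of at least 100 were reached by 5 of 22 Pax6 peaks over both loci, against 25.3% of the list, and by 15 of 36 Etv6 peaks, against 45.5%. The same held for 11 of 22 EGFP_OK peaks, against 45.5%, and 24 of 35 H3K4me2 peaks, against 73.5%. At Nfib the median Pax6 fold was 11.8 over the 7 peaks outside H3K4me2 (6.70 to 16.6) and 8.41 over the 11 inside (7.13 to 14.3), so the ranges overlapped. In the whole Pax6 list the medians were 10.6 outside and 10.3 inside. The Pax6 folds of 16.6 and 15.8 at the far end of the Nfib window were both outside, at 67268 and 78417 bp from the nearest H3K4me2 peak, whereas the fold of 14.3 at 82032044 to 82032716 was inside.

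**Figure D5:**
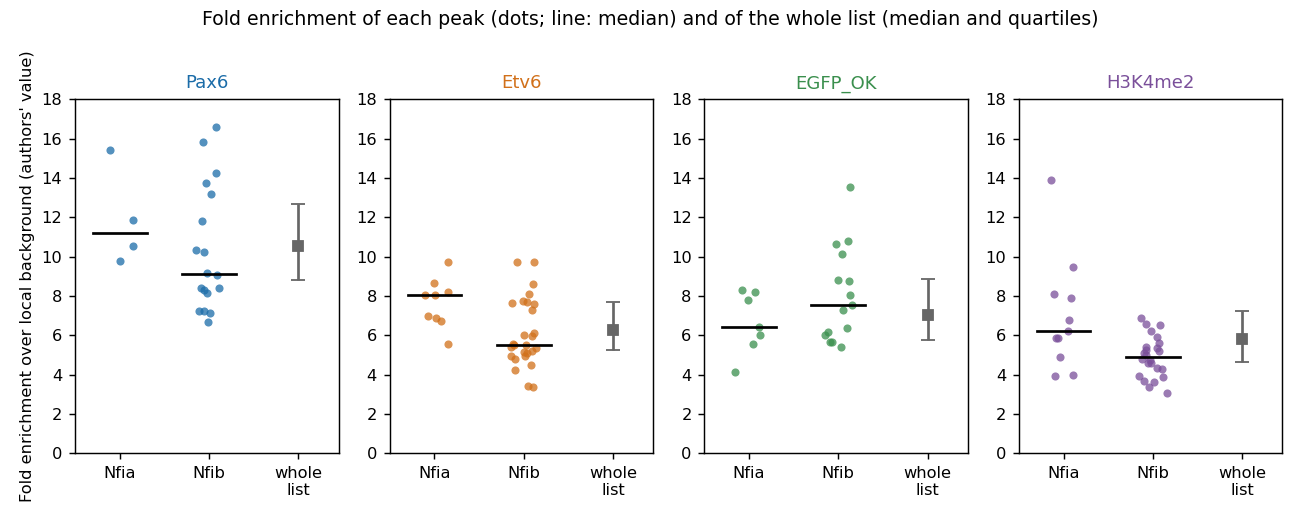
The authors' fold enrichment of every peak at Nfia and Nfib (dots, with a line at the median) beside the median and quartiles of the whole list (square and bars). Etv6 and H3K4me2 dots sit higher at Nfia than at Nfib, and the Pax6 dots of Nfib reach from 6.70 to 16.6.

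The Etv6 peaks without a Pax6 peak had a lower median of tags than those with one, with overlapping ranges. An Etv6 peak with no Pax6 peak was found 6 times at Nfia and 11 times at Nfib. These Etv6 peaks held 27 to 95 tags, with a median of 40, against 37 to 124 tags and a median of 60 for the 19 with a Pax6 peak. The Pax6 library kept 0.220 times as many tags as the Etv6 library. At that scale the median of 40 tags would give 8.79 tags in the Pax6 library, and 9 of the 17 fell under the 10 tags of the weakest called Pax6 peak. Of the 19 Etv6 peaks with a Pax6 peak, 2 were under the same limit. The part of depth in the missing Pax6 peaks was not tested. The largest of the 17, at Nfib with 95 tags (81984009 to 81985351) and at Nfia with 94 tags (97441382 to 97442851), came to 20.9 and 20.7 tags and had no Pax6 peak.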

How the data were processed

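The 4 peak lists were used as deposited. Per the file headers, the authors called peaks on each library separately with MACS 1.4.2 and no control file, keeping at most 1 tag per position, at a p cutoff of 1e-05 and an effective genome of 1.87e+09 bases. The submitters' processing notes also name CASAVA 1.8.1, BWA 0.6.2 and mm9, with no roles. For each peak the deposited files hold a count of tags not scaled for depth, a score (the −log10 p multiplied by 10, per the file headers) and the authors' fold, a ratio of summit height over local background, per the file headers.

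Groups followed the sample titles. Peaks off chromosomes 1 to 19 and X (38 to 111 per list) were left out. Membership by summit, overlaps of at least 1 bp, summits inside H3K4me2 and merged regions were computed in Python 3.11.15 (pandas 2.3.3, numpy 2.4.6, scipy 1.17.1) and checked on lists with planted overlaps. Intervals are exact 95% binomial (Clopper-Pearson), a count of 0 allows up to 3 counts, and both cover counting error only. Alternatives were the score minimum, list length, the definition of overlap and of marking, and the window. The text names every region with all FLAG lists, the 3 highest-scoring peaks of each list and the 3 widest H3K4me2 peaks at each locus, and others chosen after their values were seen. The loci, lists and rules were chosen with earlier results of these data known. Planned start-site, motif and gene-family comparisons were not run, since no mm9 genome or annotation was used here.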

Additional observations from a re-analysis of the deposited data

How the results depend on the processing

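No paired analysis was possible because each group held 1 library. Counts per locus stayed within 1.5 times under any overlap with the window and under windows widened by 100 kb, and the other settings not named here kept the shares inside their intervals. With only scores of at least 100, the Nfia counts were 1 for Pax6 and 3 for EGFP_OK, and the Nfib counts were 4 for Pax6, 9 for Etv6, 8 for EGFP_OK and 15 for H3K4me2. With lists of equal length, they were 4 for EGFP_OK and 4 for H3K4me2 at Nfia, and 11 for Etv6 and 2 for H3K4me2 at Nfib.

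At scores of at least 100, the 1 remaining Pax6 peak at Nfia met Etv6 (100%), and 0% met EGFP_OK or H3K4me2, and 0% of EGFP_OK peaks there met Pax6. At Nfib Pax6 with Etv6 was 50%, Etv6 with Pax6 22.2% and Pax6 summits in H3K4me2 25%. With equal lengths, Nfia gave 0% for Pax6 with EGFP_OK, EGFP_OK with Pax6 and Pax6 in H3K4me2. Nfib gave 50% for Pax6 with Etv6, 81.8% for Etv6 with Pax6, 11.1% for Pax6 in H3K4me2 and 9.09% for Etv6 in H3K4me2. With summits within 200 bp, Nfib gave 61.1% for Pax6 with Etv6, 0% for Pax6 with EGFP_OK, 3.70% for Etv6 with EGFP_OK, 0% for EGFP_OK with Pax6 and 6.67% for EGFP_OK with Etv6. Regions with all FLAG lists numbered 0 at both loci at scores of at least 100, and 0 at Nfib by near summits. Merging the FLAG lists without H3K4me2, an alternative chosen after seeing the data, gave 1 such region at Nfia and 5 at Nfib. Fewer peaks enter the stricter lists, and no other cause was tested.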
